A study of Homo sapiens with 108 samples.

Results

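The comparison described here is Pfeiffer cells given EPZ6438 at 10xLCC for 4 days against Pfeiffer cells given DMSO, the solvent control, for 4 days. Its members were chosen by the sample titles and are 6 arrays, 3 with EPZ6438 and 3 with DMSO. They form 2 of the 36 groups of 3 arrays that make up the series. EPZ6438 inhibits EZH2. Of the 4 human lymphoma cell lines in the series, Pfeiffer lacks the EZH2 Y641 mutation, which the lines Karpas422, WSU-DLCL2 and SU-DHL6 have. Each line received DMSO, EPZ6438 at LCC or EPZ6438 at 10xLCC and was sampled at days 2, 4 and 6, with 3 arrays a group named A, B and C. The concentrations behind LCC are not given in the sources used here, and LCC can differ between lines. The labels do not say whether arrays A, B and C were separate cultures, so the p-values measure the spread between these arrays, which may be technical. All groups used here are cultures of an established cell line, and each Pfeiffer group is the same line.

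EZH2 is the catalytic subunit of Polycomb repressive complex 2 (PRC2), which methylates lysine 27 of histone H3 and keeps genes silent. The related Polycomb complex PRC1 binds that mark through its CBX proteins and compacts chromatin. In germinal centre B cells EZH2 holds back cell cycle inhibitors and genes of differentiation, and lymphomas that arise from these cells often carry EZH2 changes that raise its activity. Pfeiffer is a diffuse large B cell lymphoma line that is known to carry an activating EZH2 substitution at another codon.

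The values are levels on the log2 scale of the deposited array intensities, and a change is the 10xLCC mean minus the DMSO mean, with its standard error (SE). A gene is called, and said to rise or fall, where limma's adjusted p was below 0.05. The 6 arrays resembled one another: their root mean square distance from the other replicates of the group was 0.164 to 0.224, against a median of 0.173 over the 26 Pfeiffer arrays used for the spread. Pfeiffer LCC day 6 array B stood at 0.699 and was left out of that spread. Keeping it reduced the genes called at day 4 from 369 to 10. RNA integrity was read from beta-actin, whose 3′ over 5′ signal (log2) was 0.0419 ± 0.0129 in DMSO and -0.01 ± 0.0627 at 10xLCC (SD, n = 3). The DMSO mean at day 4 was the highest of the 9 Pfeiffer groups, where the others had means of -0.0983 to -0.01. With this ratio as a covariate 242 genes were called. B cell markers were present, with MS4A1 (CD20) at 13.56 in DMSO and 13.59 at 10xLCC and PAX5 at 11.62 and 11.40, and 0 of the 7 B cell markers measured was called. Of the markers of other cell types, 0 of 9 myeloid and 0 of 11 epithelial and stromal genes were called, and 1 of 10 T cell genes rose, CD3D, which was called in 2 of the 6 fits that left out 1 array. The summed level of the T cell list was 13.66 to 13.84 in the DMSO arrays and 13.63 to 13.71 at 10xLCC. Pfeiffer held high signal for CD8A (13.34 in DMSO), CD247 (11.30) and the epithelial gene EPCAM (12.01) in both groups.

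The response of Pfeiffer to 10xLCC at day 4 was small. Limma called 369 of the 18884 genes (1.95%): 240 had risen (1.27%) and 129 had fallen (0.683%). The median change of the risen genes was 0.47 and that of the fallen genes -0.37, against -0.01 over all genes tested. Only 5 genes rose at least 2-fold, RCSD1, STAP1, KLRC3, ANKRD7 and KLRC4, and 1 fell at least 2-fold, DSP. Without the adjustment 3460 genes had p below 0.05. In all 240 risen genes every treated array lay above every DMSO array, and in 128 of the 129 fallen genes below. The largest rises and falls named below were also picked for this separation. A lack of overlap in a called gene is therefore no evidence beyond its call. To be tested, a gene's level had to reach 4 on 3 or more of the 26 arrays, which 18884 of 19775 genes did, and each gene is represented by its brightest probe set.

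RCSD1, which encodes a protein that binds the actin capping protein CapZ, had the largest rise. Its 10xLCC arrays A, B and C read 7.28, 7.07 and 7.43, and its DMSO arrays 5.88, 5.59 and 5.96. The groups were far apart, with a rise of 1.45 ± 0.11 (limma adjusted p = 1.4e-07), which is 2.73-fold. STAP1, an adaptor protein of B cell receptor signalling, read 6.99, 6.86 and 7.10 at 10xLCC and 5.74, 5.55 and 5.44 in DMSO. It rose by 1.41 ± 0.16 (limma adjusted p = 0.00025), and its other probe set rose by 0.93. For RCSD1 the second, dimmer probe set did not move with the first (-0.04 ± 0.19).

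The promoters of the 2 genes with the largest rises and of the gene with the largest fall are shown because they are the genes the comparison turns on, and that of BNIP3 because it led the hypoxia list described further on. The sequences are those of RefSeq (GRCh38.p14), from 250 bases before to 50 after the annotated start, 5′ to 3′ on the gene's strand, with each CG dinucleotide, the site of DNA methylation, in capitals.
RCSD1, chr1:167629982-167630281, plus strand: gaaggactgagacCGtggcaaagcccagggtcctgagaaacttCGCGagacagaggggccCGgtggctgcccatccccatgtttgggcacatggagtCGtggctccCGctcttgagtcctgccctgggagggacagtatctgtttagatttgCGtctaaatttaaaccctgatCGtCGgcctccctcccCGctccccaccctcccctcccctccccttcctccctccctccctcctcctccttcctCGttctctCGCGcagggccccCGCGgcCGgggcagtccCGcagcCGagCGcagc
STAP1, chr4:67558477-67558776, plus strand: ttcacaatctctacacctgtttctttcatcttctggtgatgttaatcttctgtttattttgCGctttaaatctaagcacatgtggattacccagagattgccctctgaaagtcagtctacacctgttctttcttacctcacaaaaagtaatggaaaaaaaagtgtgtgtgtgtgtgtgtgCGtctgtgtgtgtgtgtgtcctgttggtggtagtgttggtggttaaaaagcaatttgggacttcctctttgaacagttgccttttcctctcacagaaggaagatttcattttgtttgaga
DSP, chr6:7541421-7541720, plus strand: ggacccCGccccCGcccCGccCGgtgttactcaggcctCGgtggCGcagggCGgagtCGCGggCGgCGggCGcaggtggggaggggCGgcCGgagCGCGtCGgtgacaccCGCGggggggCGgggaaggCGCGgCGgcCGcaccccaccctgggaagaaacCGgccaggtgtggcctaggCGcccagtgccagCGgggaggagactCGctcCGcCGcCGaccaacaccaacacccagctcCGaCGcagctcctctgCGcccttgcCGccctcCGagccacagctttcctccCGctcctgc
BNIP3, chr10:131981874-131982173, minus strand: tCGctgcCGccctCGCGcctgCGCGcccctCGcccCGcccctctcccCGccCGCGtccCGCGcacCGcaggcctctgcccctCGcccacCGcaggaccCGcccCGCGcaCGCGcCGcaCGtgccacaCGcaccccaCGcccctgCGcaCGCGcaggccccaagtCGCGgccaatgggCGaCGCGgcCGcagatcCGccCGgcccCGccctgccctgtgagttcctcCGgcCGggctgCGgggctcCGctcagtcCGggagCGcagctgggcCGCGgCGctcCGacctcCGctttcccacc
The windows held 19 CG dinucleotides for RCSD1, 2 for STAP1, 37 for DSP and 48 for BNIP3, against a median of 23 over the 14732 tested genes that have a promoter sequence. The largest rises thus came from a window near that median and from one with few such sites. Only 187 of the 240 risen genes have a sequence (77.9%), where 78.0% of all genes tested do. A comparison of promoter letters between risen and other genes would leave out the rest and is not made here.

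The other rises of at least 2-fold were those of KLRC3, KLRC4 and ANKRD7. KLRC3, a C-type lectin receptor of natural killer cells, read 7.13, 7.18 and 7.36 at 10xLCC and 6.31, 5.83 and 6.07 in DMSO, a rise of 1.15 ± 0.18 (limma adjusted p = 0.0036). Its neighbour KLRC4 rose by 1.07 ± 0.23 from a dim level of 4.43. The 2 genes are near-identical copies in part, and the KLRC3 probe set can match several transcripts, so their separate changes are uncertain. ANKRD7, an ankyrin repeat protein, read 6.05, 6.07 and 6.15 against 4.97, 4.88 and 5.16, a rise of 1.08 ± 0.19. CNR1, the cannabinoid receptor and a gene that EZH2 inhibition raises in the Y641 lines, was uneven across replicates. Its 10xLCC arrays read 6.43, 5.96 and 5.66 and its DMSO arrays 5.15, 5.17 and 5.11, a rise of 0.88 ± 0.21 (limma adjusted p = 0.033). Of its 4 probe sets 2 rose and 2 had negative changes, and it was called in 1 of the 6 fits that left out 1 array.

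The other genes among the 15 largest rises spanned 0.77 to 0.98. They were CARD16, a CARD-only regulator of caspase-1, the cortexin CTXN3, the non-coding LINC02888, EFHC2, the proton-sensing receptor GPR65, GRAMD1C, the oxidation resistance gene OXR1, the selenoprotein SELENOM and GIMAP2, a GTPase of lymphocytes. GRAMD1C, OXR1 and SELENOM illustrate the spread. SELENOM read 7.40, 7.60 and 7.37 at 10xLCC and 6.88, 6.45 and 6.68 in DMSO. GRAMD1C ran from 6.92 to 7.77 at 10xLCC against 6.34 to 6.60 in DMSO, a wider scatter in the treated arrays. OXR1 read 9.78, 9.88 and 10.13 against 9.06, 9.21 and 9.11.

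DSP, desmoplakin, which ties desmosomes to intermediate filaments, had the largest fall. Its 10xLCC arrays read 5.51, 5.46 and 5.33 and its DMSO arrays 6.93, 6.58 and 7.03, a change of -1.41 ± 0.19 (limma adjusted p = 0.0008) and a 2.65-fold higher level in DMSO. PRKCB, the protein kinase C isoform that carries the B cell receptor signal to NF-kB, read 6.41, 6.46 and 6.42 at 10xLCC and 7.24, 7.31 and 7.11 in DMSO. The treated arrays agreed closely, and the change was -0.79 ± 0.10 (limma adjusted p = 0.00069). Of its other 5 probe sets 4 had negative changes and 1 a positive one (0.17), with none called. PNMA8A, of the paraneoplastic Ma antigen family, read 9.46, 9.64 and 9.82 against 10.35, 10.55 and 10.24, a change of -0.74 ± 0.10 (limma adjusted p = 0.0008).

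The other 12 of the 15 largest falls lay between -0.69 and -0.56. Of these, 3 encode proteins of the cytoskeleton or of muscle fibres: TTN (titin), the tubulin TUBB6 and MYH11 (smooth muscle myosin). TUBB6 read 7.38, 7.14 and 7.25 at 10xLCC and 8.05, 7.97 and 7.69 in DMSO. MYH11 read 10.48, 10.30 and 10.49 against 11.13, 11.16 and 10.80, and all 7 of its probe sets had negative changes, 1 of them called. That probe set is of a type that can match related transcripts. The tight junction gene OCLN and the integrin ligand gene ICAM1 also fell. ICAM1 read 9.87, 10.00 and 10.02 at 10xLCC and 10.47, 10.77 and 10.35 in DMSO, a change of -0.57 ± 0.11. CD101, LPO, TGM4, TBX18, ANKRD33B, RAB31 and LINC02502 make up the rest. At 10xLCC, TTN, CD101, LPO and TGM4 had means of 4.56 to 4.86, near the lower limit of 4 used for testing.

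**Figure D1:**
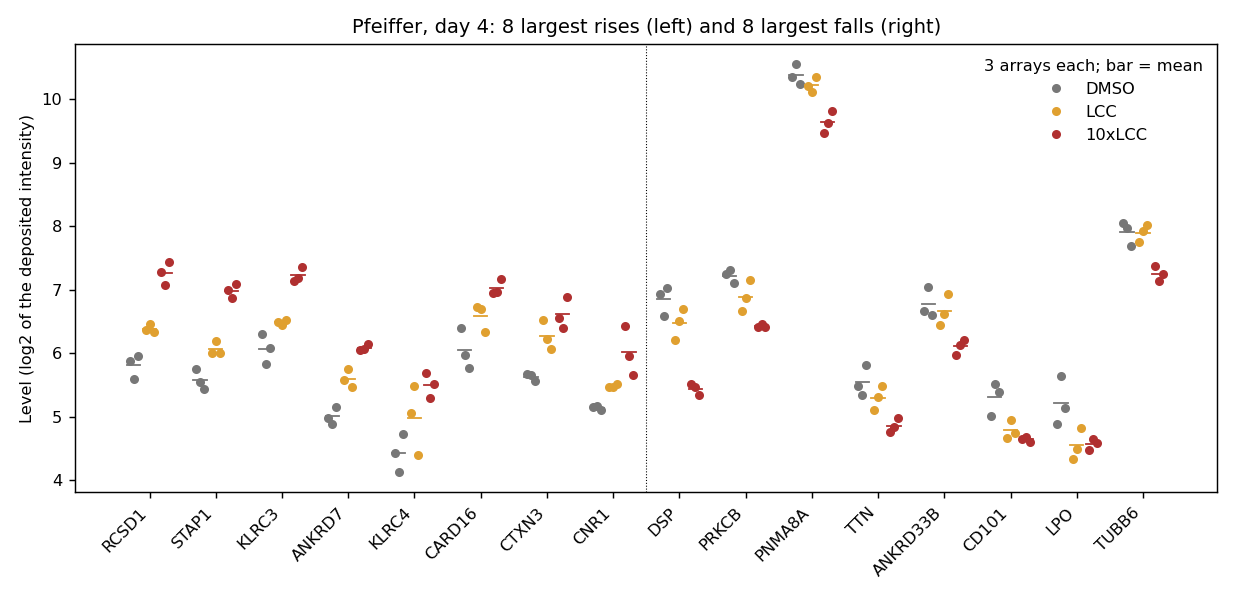
Levels (log2 of the deposited intensity) in each of the 3 DMSO, 3 LCC and 3 10xLCC arrays of Pfeiffer at day 4, with a bar at each mean, for the 8 largest rises on the left and the 8 largest falls on the right. For RCSD1 and STAP1 the LCC means, 6.39 and 6.07, lie between the DMSO and 10xLCC arrays, while for TUBB6 the LCC mean (7.90) lies at that of DMSO (7.91).

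How many genes passed depended on single arrays. Without DMSO array B 37 genes were called, without 10xLCC array C 49, without 10xLCC array A 144 and without 10xLCC array B 152. Without DMSO array A there were 512. Without DMSO array C 410 were called and the split turned, with 127 risen and 283 fallen. In these 6 fits 27 genes were called every time, 22 risen and 5 fallen, and 28 of the 369 were called in none. The 22 were RCSD1, STAP1, KLRC3, OXR1, SELENOM, STXBP6, APLN, RASSF6, GMFG, TRPC1, BNIP3, TP53INP1, H2AC6, ID1, FAM228B, SMKR1, TCL1A, RHOC, CD59, TTC12, TFPI2 and HCP5. The 5 were DSP, PRKCB, PNMA8A, MYH11 and CBL. Among them APLN, which encodes the peptide ligand apelin, read 7.43, 7.38 and 7.48 at 10xLCC and 6.89, 6.51 and 6.72 in DMSO, a rise of 0.73 ± 0.10. ID1, an inhibitor of basic helix-loop-helix factors, rose by 0.60 ± 0.10 and the AKT coactivator TCL1A by 0.53 ± 0.09. CD59, which protects cells from complement, rose by 0.50 ± 0.08. CBL, a ubiquitin ligase that limits receptor signalling, changed by -0.47 ± 0.08.

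Where a called gene had other probe sets on the array, they mostly shared its direction. This held for 189 of 225 other probe sets of risen genes (84%) and 154 of 207 of fallen genes (74.4%), against 61.1% over all genes tested. Of those others 57 and 7 were themselves called, and 0 were called in the opposite direction. The other probe sets were read on the same arrays that gave the calls, so their agreement is no independent evidence. Called genes were also selected for a large change, so a higher share than over all genes is partly built in.

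Read by gene group, the RNA of Polycomb genes showed 1 call, where 1.95% of all genes tested were called. Here and below, 1 or 2 calls in a list are not read as a change of the whole group. Of 12 PRC2 genes limma called 0, with a median change of -0.06. An unadjusted p below 0.05 was found for 4 of them and for 3460 of all 18884 genes. EZH2 itself read 10.40, 10.45 and 10.60 at 10xLCC and 10.78, 10.80 and 10.47 in DMSO, with overlapping groups and a change of -0.20 ± 0.08 (limma adjusted p = 0.23). Its paralog EZH1 changed by -0.05 ± 0.07. In PRC1, 1 of 13 genes fell, the demethylase KDM2B (-0.29 ± 0.07, limma adjusted p = 0.049). Of the 6 fits that left out 1 array, it was called only in that without DMSO array C. Among 6 inhibitors of cyclin-dependent kinases 0 were called. CDKN1A changed by -0.23 ± 0.10 and CDKN2A by 0.30 ± 0.08, whose adjusted p was 0.050.

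The called genes of proliferation and amino acid supply had small falls, where 0.683% of all genes tested fell. Of 31 DNA replication genes 3 fell and 0 rose, with a median of -0.16 against -0.01 over all genes. They were MCM4 (-0.31 ± 0.07), a subunit of the replicative helicase, and GINS2 and GINS3 (-0.29 and -0.27), of the complex that activates it. MCM4 read 11.30, 11.20 and 11.30 at 10xLCC and 11.61, 11.66 and 11.47 in DMSO. In 14 of the 31 genes every treated array lay below every DMSO array, against 9.82% of all genes. The calls in this list rest on each of the arrays other than DMSO array C. Without DMSO array C 9 genes fell, and 0 without any other single array, with medians of -0.21 to -0.11. With the 3′/5′ ratio as a covariate 0 of its genes fell. Of 30 mitosis genes 2 fell, the kinesin KIF20A (-0.34) and the spindle factor TPX2 (-0.36), and the median was -0.10. The mitosis list was mixed, with 22 negative and 8 positive changes. In 9 of its 30 genes the treated arrays all lay below DMSO and in 4 all above. Of all 18884 genes tested, 1855 had treated arrays all below DMSO and 1979 all above. Of 18 genes of the amino acid response 2 fell, both amino acid transporters, SLC7A5 (-0.41 ± 0.08) and SLC7A1 (-0.38 ± 0.07), and the median was -0.15. SLC7A5 read 10.92, 10.88 and 10.89 against 11.28, 11.44 and 11.20. The mitosis and amino acid lists lost all calls without DMSO array B or 10xLCC array B, and the mitosis list also without 10xLCC arrays A or C. Without DMSO array B their medians were -0.05 and -0.09. In the unfolded protein response 0 of 15 genes were called and 9 had an unadjusted p below 0.05, where 3460 of all 18884 genes did. The median was -0.19, and 9 genes had treated arrays that all lay below DMSO, against 9.82% of all genes. Ribosome biogenesis (0 of 17, median -0.05), glycolysis (0 of 17, -0.08) and cholesterol synthesis (0 of 14, -0.06) had no called gene.

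In the hypoxia and quiescence lists the genes that passed the test had risen, as had 1.27% of all genes tested. Of 15 hypoxia genes 2 rose and 0 fell, with a median of 0.20, which was 0.09 without 10xLCC array C and 0.11 with the mean of each gene's probe sets. Both encode mitophagy receptors: BNIP3 (0.62 ± 0.09, limma adjusted p = 0.0015) and BNIP3L (0.37 ± 0.09), the latter called only in the fit without DMSO array A among the 6 that left out 1 array. BNIP3 read 11.07, 11.13 and 11.30 at 10xLCC and 10.66, 10.58 and 10.39 in DMSO, and its second probe set rose by 0.62. The BNIP3 promoter window shown above held 6 matches to ACGTG or GCGTG, counted on both strands. They are the core of the hypoxia-inducible factor site and overlap the CG dinucleotide, and a pair of them are the opposite strands of a single CACGTG. At least 1 match is in 57.1% of the 14732 promoters of tested genes. VEGFA changed by -0.17 and DDIT4, whose window held 4 matches, by 0.02, neither called. Of 16 genes of quiescence and FOXO targets 1 rose, RCSD1, and the median was 0.23, or 0.14 with the mean of probe sets. The list was chosen with earlier results of these data known, and RCSD1 is the largest rise of the comparison. Its call is therefore no independent evidence about this list. TRIB1 (0.45), SESN3 (0.38) and PIK3IP1 (0.35) did not pass the test.

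Among 19 p53 targets 2 rose, where 1.27% of all genes did, and the median was -0.07, which was -0.00 without DMSO array A. TP53INP1, a stress-induced regulator of autophagy and cell death, read 6.99, 6.83 and 6.97 at 10xLCC and 6.25, 6.42 and 6.26 in DMSO, a rise of 0.62 ± 0.11 (limma adjusted p = 0.0089). Its 2 dimmer probe sets changed by 0.02 and 0.03. SESN1, an inhibitor of mTORC1, rose by 0.39 ± 0.10, a call lost without DMSO array B or any 1 of the 10xLCC arrays. The canonical target MDM2 changed by -0.15 and was not called.

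B cell programmes held few calls, where 1.27% of all genes tested rose and 0.683% fell. In B cell receptor signalling 1 of 16 genes fell, PRKCB, and PLCG2 upstream of it changed by -0.25 (limma adjusted p = 0.056). In the germinal centre list 1 of 15 rose, the CD10 gene MME (0.32 ± 0.08), which was called without DMSO array C and in no other fit that left out 1 array, while BCL6 changed by -0.07 ± 0.06. Plasma cell genes had 0 of 17 called, with PRDM1 at 0.00 ± 0.14 and IRF4 at -0.17 ± 0.10. Of 28 interferon response genes 1 rose, ISG15 (0.39 ± 0.08), and of 20 NF-kB targets 1 fell, ICAM1. ISG15 was called in 2 and ICAM1 in 4 of the 6 fits that left out 1 array. MHC class II (0 of 14, median 0.03) and class I genes (0 of 16, median 0.09) held no call. Of 10 cell-surface genes known to respond to EZH2 inhibition in the other lines, 2 rose, CNR1 and AIG1 (0.51 ± 0.11), and 0 did without DMSO array B, DMSO array C or 10xLCC array A. TNFRSF21, a death receptor, read 8.29, 7.99 and 8.17 against 7.49, 7.29 and 7.55 without overlap, yet its change of 0.70 ± 0.20 did not pass (limma adjusted p = 0.075). That list was written with results of these cells known and is no independent evidence of direction.

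**Figure D2:**
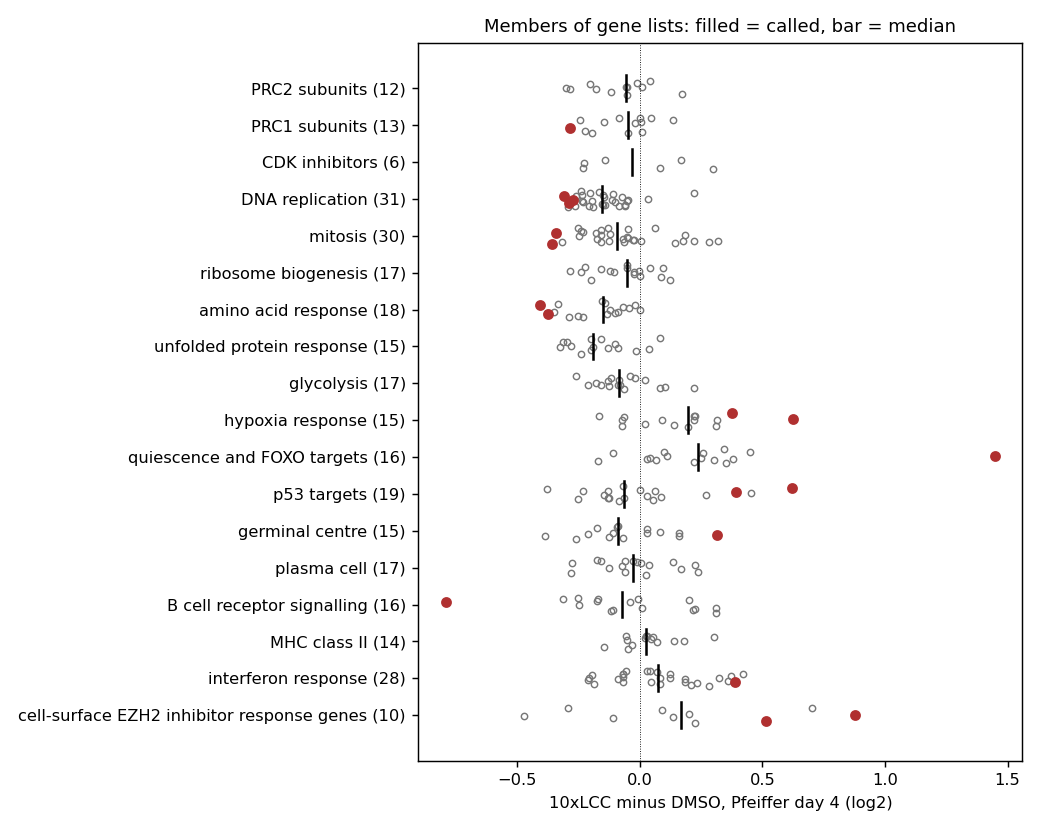
Change at 10xLCC against DMSO in Pfeiffer at day 4 (log2) for each member of 18 gene lists, with the number of genes tested in brackets. Filled points are called genes and bars are medians, of which the DNA replication (-0.16), amino acid response (-0.15) and unfolded protein response (-0.19) bars lie left of 0 and the hypoxia (0.20) and quiescence (0.23) bars right of it.

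At the lower dose, LCC, limma called 0 genes at day 4, with 1789 at an unadjusted p below 0.05. The LCC and 10xLCC comparisons share their DMSO arrays, so their values are given side by side only. RCSD1 changed by 0.58 at LCC and 1.45 at 10xLCC, STAP1 by 0.49 and 1.41, DSP by -0.38 and -1.41, and PRKCB by -0.33 and -0.79. Over the 240 risen genes the median was 0.26 at LCC and 0.47 at 10xLCC, and over the 129 fallen genes -0.16 and -0.37. These genes were called for their change at 10xLCC, so a smaller median at LCC is partly built in by the selection. The test of 10xLCC against LCC called 7 genes (0.0371%), 3 higher (0.0159%) and 4 lower (0.0212%) at 10xLCC, and 1 or 2 genes without any single array of these groups. With each array centred on bright probe sets 6 were higher and 5 lower. RCSD1 was higher at 10xLCC by 0.87 ± 0.11 (limma adjusted p = 0.0017) and STAP1 by 0.92. DSP differed by -1.03 ± 0.19, TUBB6 by -0.65, PNMA8A by -0.59 and the ETS factor ELK3 by -0.51. The seventh, the calcium pump ATP2B1, was not called against DMSO.

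The same contrast at the other days has its own DMSO arrays. At day 2 limma called 2 genes (0.0106%), RCSD1 (0.82) and the protocadherin PCDH9 (0.57). That count was 15 without day 2 DMSO array B, 43 without array C, 0 without 10xLCC array A and 1 without any of the others. Day 2 DMSO array A lay 0.372 from the other replicates of its group, the largest such distance outside LCC at day 6. The genes that rose at day 4 had a median change of 0.09 at day 2 and 197 of 240 were positive (82.1%), while 65 of the 129 fallen genes were negative there (50.4%). Over all genes tested the day 2 median was 0.02, and 53.7% had the same sign as at day 4. For 0 genes did the effect at day 4 differ from that at day 2 after adjustment (2289 at an unadjusted p below 0.05).

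At day 6, 346 genes were called (1.83%), 265 risen (1.4%) and 81 fallen (0.429%). Without 1 array the day 6 count was 286 (10xLCC array A), 186 (DMSO array A) or 134 to 163 (the other 4). Of the day 4 calls 54 were called at day 6 in the same direction, 41 up and 13 down, and 0 in the opposite one. They are 14.6% of the day 4 list and 15.6% of the day 6 list, and 36 of them had the larger change at day 6. TP53INP1 went from 0.62 to 1.28, LINC01943 from 0.64 to 1.17, RCSD1 from 1.45 to 1.75 and PNMA8A from -0.74 to -0.92. STAP1 went from 1.41 to 0.81 and DSP from -1.41 to -0.99. Over all 240 risen genes the median change was 0.10 at day 6, against 0.47 at day 4, and 157 were positive (65.4%). Of the 129 fallen genes 88 were negative at day 6 (68.2%), with a median of -0.06. Over all genes tested 51.5% had the same sign at both days. Both sets were called for their day 4 change, so smaller medians at days 2 and 6 are partly built in by the selection. BNIP3 changed by -0.04 at day 6, OXR1 by 0.04 and APLN by 0.00. The difference between the days passed the test for 3 genes (0.0159%), 2 with a higher (0.0106%) and 1 with a lower change (0.0053%) at day 6, and for 0 to 31 genes without 1 array (7 and 15 without day 4 DMSO arrays A and C, 31 without day 6 10xLCC array B). The balance turned under other settings, to 92 higher and 251 lower with centring, 116 and 271 with quantile normalization and 127 and 243 with trend and robust variance. ARL14EP, the only one of these called at day 4 (0.50 ± 0.09), changed by -0.24 at day 6, and UCP2 and PTPRO, not called at day 4, had the higher change at day 6.

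The level of DMSO at day 4 enters each of these day 4 changes. For 118 of the 240 risen genes DMSO at day 4 was the lowest of the 8 Pfeiffer groups compared, that is all but LCC at day 6, and for 60 of the 129 fallen genes the highest. Over all genes tested those counts were 2771 and 2697 of 18884. To be called, a risen gene had to have a low day 4 DMSO level against the treated arrays, and a fallen gene a high one. A larger share than over all genes is therefore built in by the selection, and nothing is read from it. In the risen genes DMSO at day 6 lay a median of 0.28 above DMSO at day 4, and DMSO at day 2 lay 0.03 above it. The same selection enters these offsets, so they do not show that the day 4 controls were unusual. Whether the day 4 DMSO cultures differed in state from the others was not tested.

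**Figure D3:**
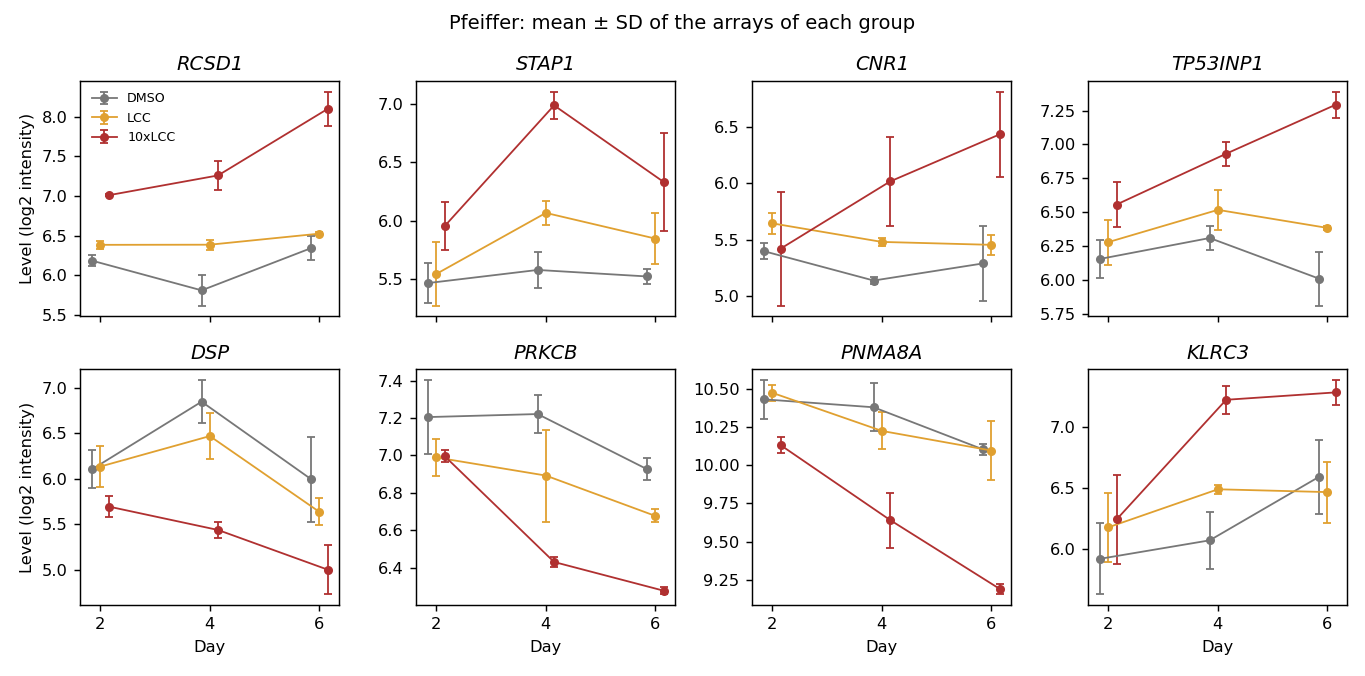
Level (mean ± SD, log2 intensity) of 8 genes in the Pfeiffer groups by day, with 3 arrays a group and 2 for LCC at day 6. RCSD1 at 10xLCC is above DMSO at days 2, 4 and 6 (changes of 0.82, 1.45 and 1.75), while the CNR1 groups overlap at day 2 and separate at days 4 and 6.

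**Figure D4:**
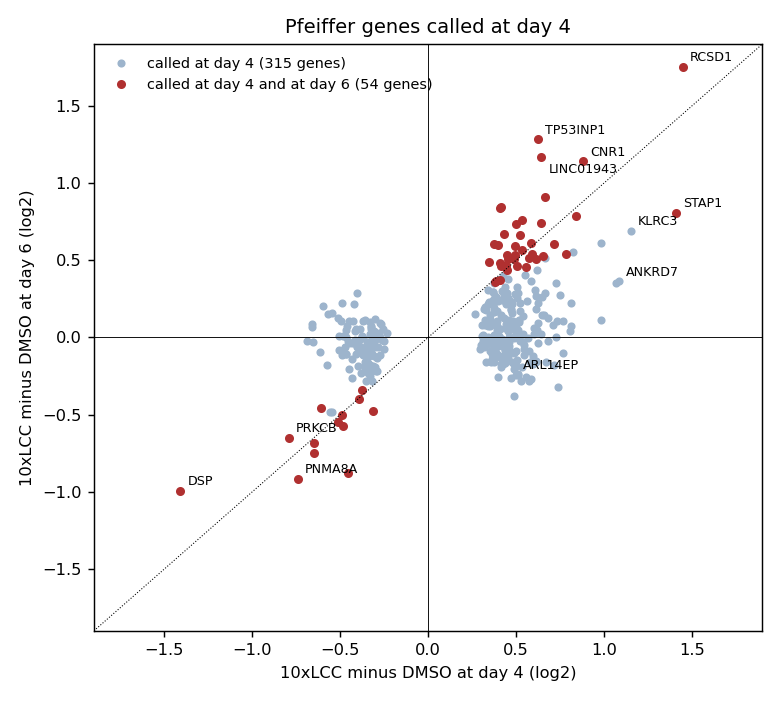
Change at day 6 against change at day 4 (log2) for the 369 genes called in Pfeiffer at day 4, with the 54 called at both days filled in red and the line of equal change dotted. BNIP3 and OXR1 are among those near 0 on the day 6 axis (-0.04 and 0.04).

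Against the 3 lines with the EZH2 Y641 mutation, the change in Pfeiffer was tested at the same day and dose name, each line having its own controls. By the fit over all lines, which has another form than the Pfeiffer fit, 11.4% of genes rose and 17.2% fell in Karpas422, 17.5% and 13.5% in WSU-DLCL2, and 10.9% and 10.7% in SU-DHL6. Of the 369 genes, 189 differed between Pfeiffer and the mean of the Y641 lines (111 with a higher change in Pfeiffer and 78 with a lower one), where 18.2% of all genes did (9.18% higher and 8.98% lower). The Pfeiffer change for which the 369 were called is a term of this difference, so nothing is read from their share. With each array centred on bright probe sets the split over all genes moved from 1761 higher and 1724 lower to 1540 and 2565. PRKCB fell in Pfeiffer and rose in WSU-DLCL2 (2.54), SU-DHL6 (1.02) and Karpas422 (1.35), a difference from their mean of -2.43 ± 0.12 (limma adjusted p = 1.7e-28). ELK3 likewise fell in Pfeiffer (-0.42) and rose in the others by 0.67 to 2.46, and CLSTN1 fell in Pfeiffer and rose by 0.28 to 0.56. NQO1, a quinone reductase, rose in Pfeiffer (0.39) and fell in the others by 0.51 to 1.02, and RLIG1, an RNA ligase, rose by 0.49 and fell by 0.61 to 1.12. STAP1, KLRC3 and DSP also differed from the Y641 mean, by 1.24, 1.20 and -1.58. STAP1 rose in Karpas422 too (0.62) and changed by -0.08 and -0.04 in WSU-DLCL2 and SU-DHL6. DSP changed by -0.07 in Karpas422 and by 0.23 and 0.35 in the other 2.

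Other genes moved in the same direction in all 4 lines. There were 34 that rose in every line (0.18% of genes tested) and 23 that fell in every line (0.122%). The risen ones include AIG1, CNR1, TP53INP1, SESN1, APLN, ID1, H2AC6 and the death ligand gene TNFSF10, all but APLN smaller in Pfeiffer by the test of the difference. AIG1 rose by 0.51 in Pfeiffer and by 2.07 to 3.32 in the others, a difference of -1.99 (limma adjusted p = 3.4e-16). APLN rose by 0.73 in Pfeiffer and by 0.69 to 0.96 in the others, and that difference did not pass the test (-0.07, limma adjusted p = 0.79). The fallen ones include MCM4, GINS2, TPX2 and SLC7A5, the DNA methylation cofactor UHRF1 and the histone methyltransferase NSD2. All of these named genes fell less in Pfeiffer by the test of the difference, from 0.48 for SLC7A5 to 0.73 for MCM4. UHRF1 changed by -0.37 in Pfeiffer and by -1.17 to -0.54 in the others. ABAT, which rose by 2.89 to 3.04 in the Y641 lines, changed by 0.24 ± 0.12 in Pfeiffer and was not called (limma adjusted p = 0.32).

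**Figure D5:**
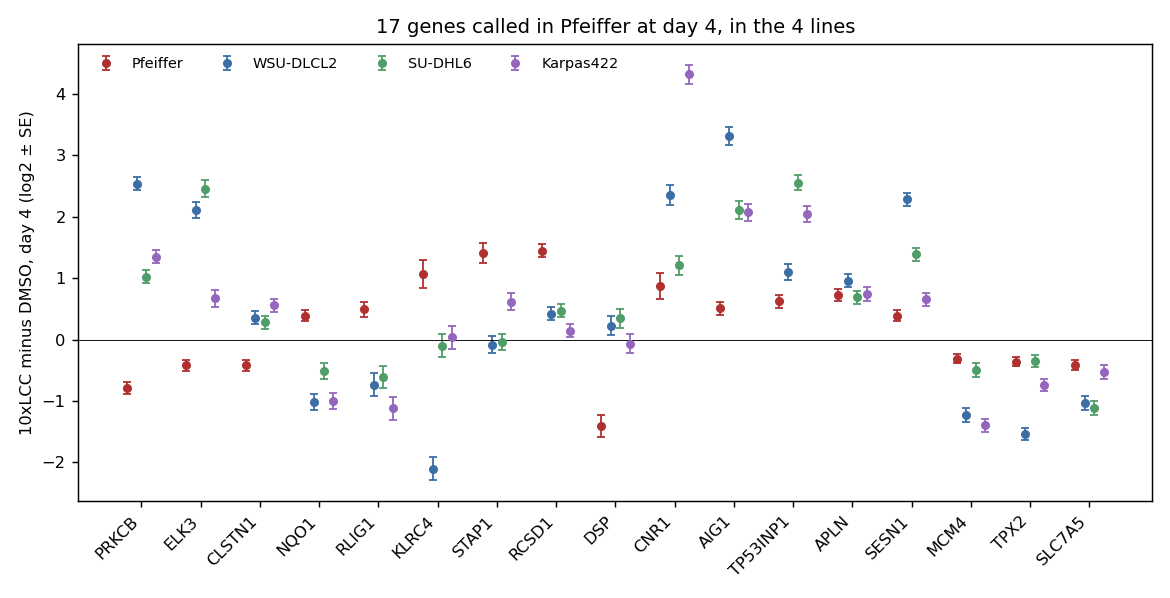
Change at 10xLCC against DMSO at day 4 (log2 ± SE, n = 3 arrays a group) for 17 genes called in Pfeiffer, in Pfeiffer and the 3 Y641 lines. PRKCB, ELK3 and CLSTN1 lie below 0 in Pfeiffer and above it in the other lines, NQO1 and RLIG1 the other way, and MCM4, TPX2 and SLC7A5 lie below 0 in all 4.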

How the data were processed

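RNA of cultured lymphoma cells was measured on Affymetrix arrays. Per the labels' protocols it was purified on columns and labelled with biotin. GCRMA is the method that the submitters' processing notes name, without a version. It normalizes arrays to one another, so a shift of all transcripts would be largely removed. The deposited values are linear intensities, and log2 was taken with a pseudocount of 0. The annotation gives 1 gene for 41097 of 54675 probe sets, several for 1801 and none for 11777. Only the first were used, of which 38207 passed the filter. Of the 19775 genes on the array so named, 19731 matched RefSeq (GRCh38.p14).

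Limma 3.58.1 in R 4.3.3 was fitted to 26 Pfeiffer arrays in 9 groups, or, for the comparison of lines, to all arrays but LCC day 6 B of Pfeiffer, with two-sided p-values adjusted by Benjamini-Hochberg over all probe sets. The fit was tested on simulated data. For 1 gene, 3 values against 3 cannot give an exact permutation p below 0.1, and the number of arrays limits the precision. Named genes are the 15 largest rises and falls with non-overlapping arrays, in each list at most 4 with the lowest p, the 4 largest differences each way between doses, days and lines, and set genes. Others were named after their values were seen. The members and lists were chosen with earlier results of these data known. Alternatives covered the filter, the use of probe sets, normalization, the variance model, a replicate block, a 3′/5′ covariate, the arrays fitted and each array left out. The brightest probe set of each gene alone was an alternative chosen after seeing the data.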

Additional observations from a re-analysis of the deposited data

Results flagged for a closer look

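Some changes differed between days or between Pfeiffer and the Y641 lines by limma's test of the difference. Between days 4 and 6 the effect of 10xLCC shifted (later minus earlier) by -0.74 for ARL14EP, by 0.76 for PTPRO, a receptor tyrosine phosphatase, and by 0.61 for UCP2, a mitochondrial carrier. All 3 had adjusted p-values of 0.031 to 0.044. That test called 0 genes in 8 of the 12 fits that left out 1 array, and 0 with LCC day 6 array B kept and with the replicate block. The day 4 effect in Pfeiffer minus the mean of the Y641 lines was highest, among genes called in Pfeiffer, for KLRC4 (1.79), RLIG1 (1.31), STAP1 (1.24) and NQO1 (1.23). KLRC4 changed by 0.04 in Karpas422, by -2.10 in WSU-DLCL2 and by -0.10 in SU-DHL6. The difference was lowest for PRKCB (-2.43), ELK3 (-2.17), AIG1 (-1.99) and CNR1 (-1.75). Single genes were not searched for an outlying value within groups of 3 arrays.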

How the results depend on the processing

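The number of genes called at day 4 moved widely with the processing. Of the 157 named genes 0 had a called change of the opposite sign under any alternative that gave them a value. That count was largely fixed in advance. The filter, the variance model, the replicate block and the other groups fitted leave the change itself as it was. Leaving out 1 array cannot turn the sign of a gene whose arrays do not overlap. Against 369, the counts were 10 with LCC day 6 array B kept, 49 with the 2 groups alone, 64 with the 3 day 4 groups alone, 242 with the 3′/5′ covariate, 655 with the filter at log2 6, 665 with the brightest probe set of each gene alone, 914 with trend and robust variance, 945 with centring and 1065 with quantile normalization. Without filter there were 337 and with the mean of probe sets 524. Leaving out 1 array gave 37 to 512. Deviations of same-letter arrays from their group means correlated at -0.139, -0.156 and -0.327, and those of different letters at -0.135 to 0.267. The deviations of the 3 arrays of a group sum to 0, so these values cannot decide whether the letters pair the arrays. With the replicate block 298 genes were called (206 up, 92 down).

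For 10xLCC against LCC, 7 genes became 1 (array kept, mean of probe sets, replicate block), 3 (3 groups alone, covariate), 11 (centring, trend and robust) or 23 (quantile), and 1 to 2 without 1 array. At day 2, 2 genes became 0 (mean of probe sets), 1 (array kept, covariate, replicate block) or 10 (trend and robust), and 0 to 43 without 1 array. At day 6, 346 became 39 (array kept), 182 (covariate), 560 (trend and robust), 590 (quantile) or 611 (centring), and 134 to 286 without 1 array. The LCC count was 0 under each setting with all arrays and 0 to 1 without 1 array. Day 4 minus day 2 gave 1 gene with quantile normalization, 71 with trend and robust variance, and 0 otherwise. Day 6 minus day 4 gave 0 (array kept, replicate block), 1 (covariate, no filter), 45 (mean of probe sets), 73 (filter at log2 6), 343 (centring, 92 higher and 251 lower), 370 (trend and robust) or 387 (quantile), and 0 to 31 without 1 array. The difference from the Y641 lines called 2828 to 3431 genes without 1 array, of which 2702 to 3080 were among the 3485. The cause of these shifts was not tested.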

Other observations

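The 369 called genes differed in annotated gene length, given as a description without a test. The median was 17.2 kb for the 240 risen genes and 49.2 kb for the 129 fallen genes, against 24.7 kb over all genes tested. Of the risen genes 216 were protein-coding and 19 long non-coding RNAs, and of the fallen genes 121 and 7.

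Some called genes lay side by side. There were 16 neighbouring pairs within 100 kb, 9 with the same direction and 7 with opposite ones. Same-direction pairs included KLRC4 and KLRC3, the AKT coactivators TCL1B (0.49) and TCL1A (0.53), the relaxin genes RLN2 (0.61) and RLN1 (0.57), and the calcium-binding genes S100A6 (0.45) and S100A13 (0.59). The KLRC, RLN and TCL1 pairs are related copies whose probe sets may share targets. An opposite pair was NFAT5, the osmotic stress factor (-0.38), and NQO1 (0.39), 4.75 kb apart.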
